A study of Mus musculus with 6 samples.

Results

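The 37 genes described here encode enzymes of sterol and fatty acid synthesis and a sterol carrier and were taken as a list of symbols ordered along the pathways. All 37 were found among the 14915 symbols of the deposited table. They were compared between 3 libraries labelled WT and 3 labelled ZBTB5-S127A, all labelled as B16F10, a mouse melanoma cell line, treated with TNFα, an inflammatory cytokine, while amino acids were limited. ZBTB5 belongs to the BTB zinc finger transcription factors, and S127A names the replacement of a serine by alanine, a residue that cannot be phosphorylated. The study set out to ask what phosphorylation of that serine does when inflammation activates mTORC1, a kinase complex of growth control. No untreated cells were analysed here, so each difference is between treated libraries that carry these labels. How the mutant line was made, and whether it is 1 clone, is not given in the sources used here.

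Cholesterol is built from acetyl-CoA through the mevalonate pathway to squalene, which is closed into a ring and trimmed to the sterol. Fatty acids are built from the same acetyl-CoA by carboxylation and chain extension, then elongated, desaturated, activated to acyl-CoA and joined to glycerol. Transcription of most of these enzymes is controlled by the SREBP factors, which sterol shortage releases to the nucleus, and mTORC1 is known to act upstream of SREBP.

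The values are TPM, relative transcript abundances scaled by gene length and library total, so levels may be compared between genes. Differences are log2 fold changes of TPM + 1, S127A minus WT, tested with limma across all genes. A gene was called at an adjusted p of at most 0.05. The labels do not say whether the replicates are separate cultures. The p-values therefore rest on the spread among these libraries only, and that spread may be technical. The WT libraries summed to between 862949 and 864529 TPM and the S127A libraries to between 830745 and 833332 TPM. The main fit did not rescale them to a common total.

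The labelled cell type was checked first. The summed level of 10 melanocyte markers was 18736 to 18903 TPM in WT libraries and 113.8 to 122.9 TPM in the libraries labelled S127A, with all 10 markers lower. The S127A libraries thus nearly lacked the markers of the labelled cell type, and whether they are the stated line could not be checked from TPM per gene, so line and genotype cannot be told apart. Of 10 fibroblast markers 10 were listed, and their sum was 16.2 to 17.1 TPM in WT and 303.2 to 315.8 TPM in S127A, most of it COL1A2 (275 ± 6.56 TPM in S127A). Of the 7 tested 6 were higher, while POSTN fell from 7.79 ± 0.912 to 0.0667 ± 0.0231 TPM, DCN was at 0 in all WT libraries and LUM in all S127A libraries. Of 12 immune markers 8 were listed, with sums of 7.47 to 8.70 TPM and 49.4 to 52.3 TPM. Only 2 of these were tested and they went opposite ways. Each WT library had CD14 at 0, against 45.1 ± 1.77 TPM in S127A, and CD68 was lower, at 4.69 ± 0.409 TPM against 7.64 ± 0.601 TPM in WT. Of 10 endothelial or epithelial markers 9 were listed, with sums of 1.37 to 1.76 TPM and 63.7 to 64.1 TPM, and nearly all of the S127A sum was the keratin KRT18 (62.8 ± 0.362 TPM), the 1 tested gene of the list. CDH5, KDR, TEK, KRT8 and KRT19 were at 0 in all WT libraries and had means of at most 0.493 TPM in S127A. Adipocytes are rich in several of the enzymes below. Of 8 adipocyte markers 7 were listed, with sums of 2.24 to 3.10 TPM in WT and 5.16 to 6.24 TPM in S127A, and LIPE made up most of both. ADIPOQ, LEP, CIDEA and FABP4 were at 0 in all WT libraries and PLIN1, CIDEA and PPARG in all S127A libraries. The part of these shifts in the results below was not tested, and in bulk RNA fewer cells of a type and less RNA per cell cannot be told apart. ZBTB5 itself stood at 15.9, 14.9 and 15.7 TPM in WT and 9.24, 8.24 and 9.21 TPM in S127A, and gene-level TPM does not show the substitution.

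In the GENCODE annotation of mm10 36 of the 37 symbols were matched, on 18 chromosomes, with 5 genes on chromosome 19. All 37 genes passed the filter of a mean of at least 1 TPM. In S127A 30 were lower, 5 were higher and 2 were not called. Of all 10348 tested genes 90.0% were called, 49.8% lower and 40.2% higher, so a call by itself sets no gene apart. The enzymes' share called lower was 81.1%. Falls of at least 2-fold were found for 26 of the 37 enzymes (70.3%), against 19.9% of all tested genes. Falls of at least 8-fold on this scale of TPM + 1 were found for 11 of them, against 4.95% of all tested genes. IDI1 (8.04-fold) and HSD17B7 (10.1-fold) passed 8-fold by means only. The median log2 fold change was −2.13 over the enzymes and −0.12 over all tested genes. The 37 genes were chosen with earlier results of these data known. Their excess over all tested genes therefore cannot be told apart from that choice and is a description, not a test. In 31 enzymes every S127A library lay below every WT library and in 5 every S127A library lay above. Among all tested genes such separation held for 49.8% and 40.4%, and in either direction for 90.2%.

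**Figure D1:**
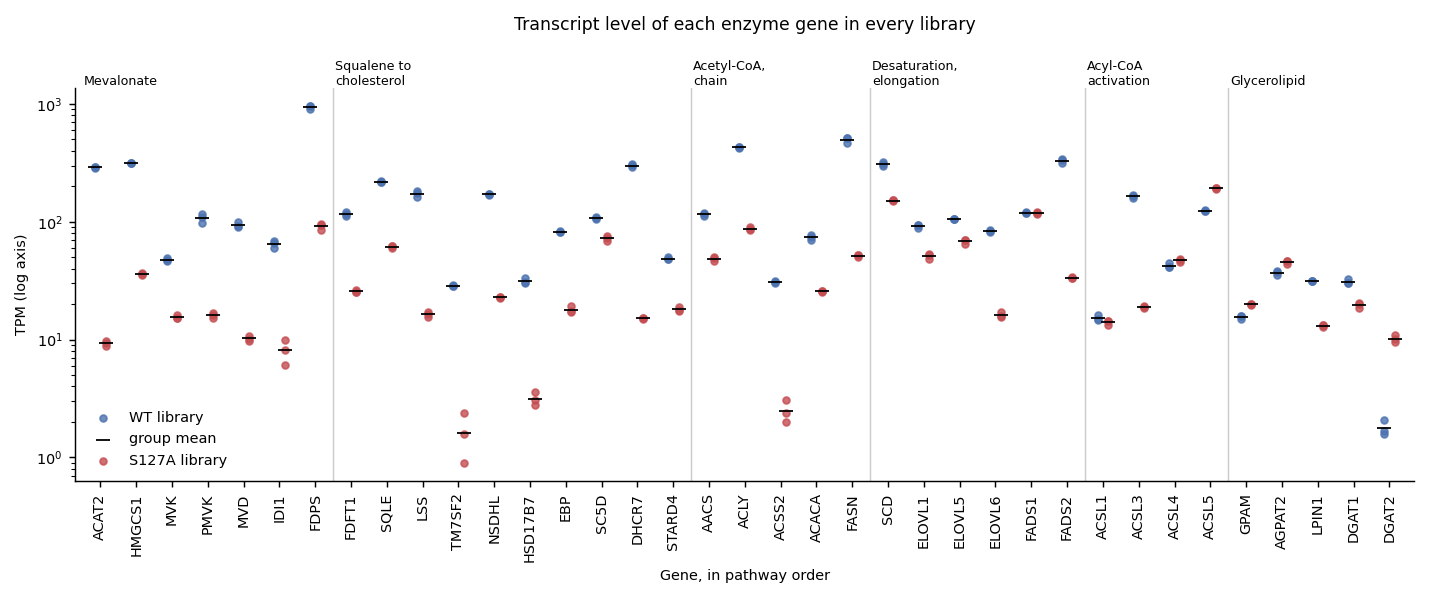
TPM of each enzyme gene (vertical log axis) in pathway order, with blue points for the 3 WT libraries, red points for the 3 S127A libraries and black bars for group means. From ACAT2 to FASN the red points lie below the blue ones in each gene, while they meet at FADS1 and lie above at ACSL4, ACSL5, GPAM, AGPAT2 and DGAT2.

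The summed TPM of the 37 genes was 5643, 5861 and 5890 in WT and 1478, 1471 and 1482 in S127A, a 3.93-fold lower mean. The fall was uneven along the pathway. The 7 mevalonate genes together fell 9.96-fold, from 1868 ± 50.5 to 187 ± 3.09 TPM. The 10 genes from squalene to cholesterol fell 5.02-fold, and the 5 genes of acetyl-CoA supply and chain building 5.33-fold. The 6 desaturase and elongase genes fell 2.37-fold together. Sums of the 4 acyl-CoA synthetase genes (348 ± 7.11 and 272 ± 3.48 TPM) and the 5 glycerolipid genes (117 ± 2.05 and 109 ± 2.36 TPM) were nearer to each other. With TMM factors, a scaling that sets the bulk of genes level, the glycerolipid sums were 112 ± 1.84 and 113 ± 2.47, so their order depends on the scaling. The 7 sums gave p = 0.1 each in two-sided exact permutation tests, the smallest p that 3 against 3 allows.

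The mevalonate pathway was lower in S127A in 7 of 7 genes, all by at least 2-fold, with a median log2 fold change of −3.08. ACAT2, the cytosolic thiolase that joins 2 acetyl-CoA units, showed the largest fall of the 37 genes. It stood at 287, 291 and 291 TPM in WT and 8.74, 9.76 and 9.33 TPM in S127A (log2 fold change −4.82, SE 0.0426, limma adjusted p = 1.22e-14). The S127A libraries thus kept 3.20% of the WT mean, with no overlap. Acat2 lies on chromosome 17 from 12942890 to 12960747 (minus strand, mm10) and its paralog Acat3 is annotated next to it from 12923813 to 12940600, so shared reads would make its level uncertain. HMGCS1, the synthase that makes HMG-CoA, stood at 316, 317 and 316 TPM in WT and 35.2, 36.7 and 36.4 TPM in S127A (log2 fold change −3.10, SE 0.0308, limma adjusted p = 2.14e-14). These were among the tightest replicates of the set, with a WT coefficient of variation of 0.253%. The WT libraries again all lay above the S127A libraries.

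The kinases that phosphorylate mevalonate fell by different amounts. MVK, the first kinase, stood at 46.9, 49.0 and 47.5 TPM in WT and 16.2, 15.4 and 15.3 TPM in S127A, a log2 fold change of −1.55 and the smallest of the 7. PMVK, the second kinase, stood at 98.2, 115 and 110 TPM in WT and 15.2, 16.7 and 16.1 TPM in S127A (log2 fold change −2.67). In both kinases the groups were far apart, and PMVK was lowest of the WT libraries in replicate 1. MVD, the decarboxylase that makes isopentenyl diphosphate, stood at 89.99, 92.4 and 99.3 TPM in WT and 10.8, 10.2 and 9.74 TPM in S127A (log2 fold change −3.08). IDI1, the isomerase that follows, stood at 66.1, 60.4 and 68.8 TPM in WT and 8.23, 9.94 and 6.12 TPM in S127A (log2 fold change −2.88). IDI1 varied most of the 7 among S127A libraries, with a coefficient of variation of 23.6%, but its groups stayed apart. FDPS, the farnesyl diphosphate synthase, was the most abundant of the 37 genes in WT. It held 906, 967 and 969 TPM in WT and 96.1, 85.7 and 94.6 TPM in S127A, a 10.3-fold lower mean (log2 fold change −3.35, limma adjusted p = 1.64e-13). In S127A it ranked number 4.

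The proximal promoters were read because these genes moved together. RefSeq promoter windows on GRCm38.p6, from 250 bases before to 50 after the start, were matched by symbol for 29 of the 37 genes. They were searched on both strands for TCACNCCAC, the core of the sterol regulatory element, for CCAAT, the box bound by NF-Y, and for CACGTG, an E-box. The sterol element was found in 2 of 29 enzyme genes (6.90%), HMGCS1 and ACSL1, and in 1.44% of all 27025 genes with a window. The CCAAT box was found in 21 of 29 (72.4%) against 41.1% of all genes and 43.1% of the 7929 tested genes with a window. Of the 21 matched genes that fell at least 2-fold 15 held it, and of the other 8 matched genes 6. The E-box was found in 4 of 29 (13.8%), against 8.09% of all genes and 12.2% of the tested genes. A match is a description of letters and not of binding, and the sterol element is known in many variants that this search does not cover.

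The 250 bases before the start of HMGCS1, which fell 8.76-fold, and before the second listed start of ACSL1, which was not called, are shown 5′ to 3′ because both hold the sterol element. They span chr13:119690101-119690350 and chr8:46490716-46490965 on the plus strand of GRCm38.p6. Capitals mark TCACNCCAC and CCAAT on either strand, read as ATTGG when on the other strand. The sterol element begins 137 bases before the HMGCS1 start on the plus strand and 76 bases before the ACSL1 start on the minus strand, with 3 and 2 CCAAT boxes in the same stretches. The gene-level TPM does not tell which ACSL1 start is used.
HMGCS1: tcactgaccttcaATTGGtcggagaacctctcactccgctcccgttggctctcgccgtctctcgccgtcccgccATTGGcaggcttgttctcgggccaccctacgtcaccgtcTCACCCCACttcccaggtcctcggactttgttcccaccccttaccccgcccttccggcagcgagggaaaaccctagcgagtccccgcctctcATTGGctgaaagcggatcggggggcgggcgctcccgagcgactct
ACSL1: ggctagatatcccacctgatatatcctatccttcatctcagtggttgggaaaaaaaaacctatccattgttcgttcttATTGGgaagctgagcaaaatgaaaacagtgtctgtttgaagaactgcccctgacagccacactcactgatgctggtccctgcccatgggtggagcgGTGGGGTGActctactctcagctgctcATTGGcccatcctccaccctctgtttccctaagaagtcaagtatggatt

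From squalene to cholesterol 10 of 10 genes were lower in S127A, 9 of them by at least 2-fold, with a median log2 fold change of −2.50. FDFT1, the squalene synthase that commits the pathway to sterols, stood at 112, 117 and 120.1 TPM in WT and 25.5, 25.2 and 26.5 TPM in S127A (log2 fold change −2.13). SQLE, the squalene epoxidase and a rate-limiting step, stood at 216, 218 and 220.2 TPM in WT and 61.8, 62.8 and 59.7 TPM in S127A (log2 fold change −1.81, SE 0.0318, limma adjusted p = 9.84e-13). LSS, the cyclase that closes the ring, stood at 162, 176 and 182 TPM in WT and 15.5, 16.5 and 17.1 TPM in S127A (log2 fold change −3.33). All WT libraries lay above all S127A libraries in these genes, and SQLE kept 28.2% of its WT level while LSS kept 9.42%.

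The genes that trim lanosterol followed. TM7SF2, a sterol reductase, stood at 29.0, 28.6 and 28.6 TPM in WT and 1.58, 0.90 and 2.39 TPM in S127A (log2 fold change −3.54, SE 0.162). It was the least abundant of the 37 genes in S127A and the most variable there, with a coefficient of variation of 46.0%, and it overlaps Vps51 on the same strand. NSDHL, which removes a carbon of the sterol ring as part of demethylation, stood at 168, 172 and 173 TPM in WT and 22.8, 22.8 and 23.0 TPM in S127A (log2 fold change −2.85). HSD17B7, the ketosteroid reductase of the same complex, stood at 33.2, 31.0 and 30.4 TPM in WT and 3.05, 3.56 and 2.80 TPM in S127A (log2 fold change −2.98). Groups did not overlap in any of these genes. EBP, the sterol isomerase, stood at 83.6, 81.8 and 81.7 TPM in WT and 17.0, 17.5 and 19.1 TPM in S127A (log2 fold change −2.14). DHCR7, the last reductase before cholesterol, stood at 290.3, 307 and 303 TPM in WT and 15.2, 15.3 and 15.1 TPM in S127A (log2 fold change −4.22, SE 0.035, limma adjusted p = 1.19e-14). Its fall, 19.8-fold by means, was second only to that of ACAT2 on the log2 scale among the 37 genes.

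SC5D, the desaturase that acts just before DHCR7, changed least of the sterol genes. Its level was 106 to 109 TPM in WT and 68.4 to 75.3 TPM in S127A (log2 fold change −0.58, SE 0.0398, limma adjusted p = 9.9e-08). The 2 genes that act in succession thus stood at 66.8% and 5.06% of their WT means. STARD4, a carrier of cholesterol between membranes and not an enzyme, stood at 49.9, 48.4 and 48.0 TPM in WT and 18.9, 17.9 and 17.3 TPM in S127A (log2 fold change −1.39). Across the 17 sterol genes the S127A libraries kept 3.20% to 66.8% of the WT means.

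All 5 genes grouped under acetyl-CoA supply and chain building were lower in S127A by at least 2-fold, with a median log2 fold change of −2.29. ACLY, which cleaves citrate to cytosolic acetyl-CoA, stood at 422, 435 and 434 TPM in WT and 85.1, 86.8 and 89.7 TPM in S127A (log2 fold change −2.29). ACSS2, which makes acetyl-CoA from acetate, stood at 30.5, 30.4 and 31.4 TPM in WT and 2.01, 2.40 and 3.04 TPM in S127A (log2 fold change −3.20). AACS, which activates acetoacetate, stood at 112, 119 and 117 TPM in WT and 46.3, 50.1 and 49.6 TPM in S127A (log2 fold change −1.24). ACLY, ACSS2 and AACS were thus all lower, and of these ACSS2, the least abundant, had the largest fold change, whereas ACLY lost the most TPM. ACACA, the carboxylase that commits acetyl-CoA to fatty acids, stood at 70.5, 76.5 and 74.3 TPM in WT and 25.6, 25.5 and 25.9 TPM in S127A (log2 fold change −1.49). FASN, the fatty acid synthase, stood at 465, 513 and 512 TPM in WT and 49.8, 52.1 and 52.6 TPM in S127A (log2 fold change −3.24, SE 0.0424, limma adjusted p = 1.22e-13). FASN ranked number 2 of the 37 genes in WT and number 9 in S127A. WT replicate 1 was the lowest WT library for both ACACA and FASN, yet far above each S127A library.

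**Figure D2:**
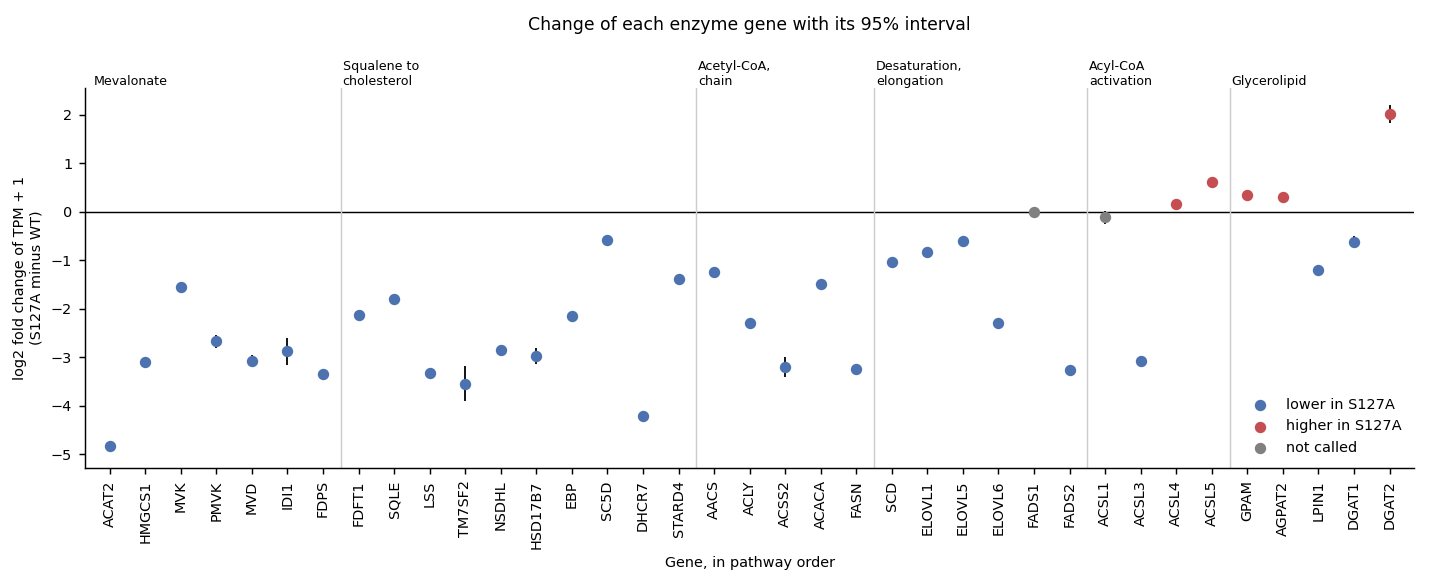
Log2 fold change of TPM + 1 (S127A minus WT) of each gene in pathway order, with vertical lines for the 95% interval of limma, hidden by the point where shorter than it. Falls of up to −4.82 fill the left of the plot and the 5 genes in red, up to 2.01 for DGAT2, stand at its right.

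Desaturases and elongases, which shape the finished chain, split within families. Of 6 genes 5 were lower and FADS1 was not called, with a median log2 fold change of −0.93. SCD, the stearoyl-CoA desaturase that makes oleate, stood at 298, 311 and 321 TPM in WT and 149.98, 152 and 152 TPM in S127A (log2 fold change −1.03). It lay just past the 2-fold line, and ELOVL1 at −0.83 was the nearest fall short of it. SCD fell short of 2-fold with TMM factors (−0.91), which left 25 enzyme genes past that line. The symbol SCD does not tell which of the 4 mouse Scd genes annotated on chromosome 19 (Scd1 to Scd4) was counted. Within each library the ratio of FASN to SCD TPM was 1.56, 1.65 and 1.60 in WT and 0.332, 0.343 and 0.346 in S127A.

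ELOVL6, the elongase that extends palmitate, stood at 82.6, 84.2 and 84.4 TPM in WT and 17.1, 15.6 and 15.9 TPM in S127A (log2 fold change −2.30, SE 0.0441, limma adjusted p = 1.93e-12). ELOVL1, which serves very long saturated chains, ranged from 88.5 to 93.7 TPM in WT and 48.6 to 53.3 TPM in S127A. ELOVL5, which extends polyunsaturated chains, ranged from 105 to 106 TPM in WT and 64.6 to 70.6 TPM in S127A (log2 fold change −0.62). ELOVL6 therefore held 29.8% ± 0.122 of the summed TPM of the 3 elongases in WT and 11.9% ± 0.668 in S127A, while ELOVL5 moved from 37.5% ± 0.499 to 50.3% ± 1.5 (SD, n = 3).

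The desaturases FADS2 and FADS1, which act in turn on polyunsaturated fatty acids, differed most. FADS2, the Δ6-desaturase, stood at 317, 339 and 333 TPM in WT and 33.5, 33.8 and 33.3 TPM in S127A (log2 fold change −3.26, SE 0.034, limma adjusted p = 2.88e-14). FADS1, the Δ5-desaturase, stood at 118, 119 and 121 TPM in WT and 116, 119 and 122 TPM in S127A. No other of the 37 genes had overlapping groups. Its log2 difference was −0.01 with a 95% interval of −0.08 to 0.06 (limma adjusted p = 0.805), and it was called higher with TMM factors (0.11, adjusted p = 0.00604) and quantile normalization (0.11, adjusted p = 0.00681) and lay between −0.03 and 0.05 in the other 16 alternatives. The ratio of FADS2 to FADS1 TPM, which does not depend on the scale of the library, was 2.68, 2.86 and 2.75 in WT and 0.289, 0.285 and 0.274 in S127A.

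These genes lie side by side with FADS3 on chromosome 19 of mm10, in 155 kb. Fads3 (10041569 to 10060110, plus strand) and Fads2 (10062765 to 10101746, minus strand) face each other with their ends, and Fads1 (10182888 to 10196877, plus strand) begins 81.1 kb beyond the start of Fads2. FADS3, a desaturase relative and no member of the list, stood at 0.58, 0.65 and 0.53 TPM in WT and 66.8, 71.6 and 72.02 TPM in S127A (log2 fold change 5.49, SE 0.0607, limma adjusted p = 4.12e-14). Along 1 stretch of chromosome the libraries labelled S127A thus held one gene much higher, its neighbour about 10 times lower (9.83-fold by means) and the third at about the WT level.

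**Figure D3:**
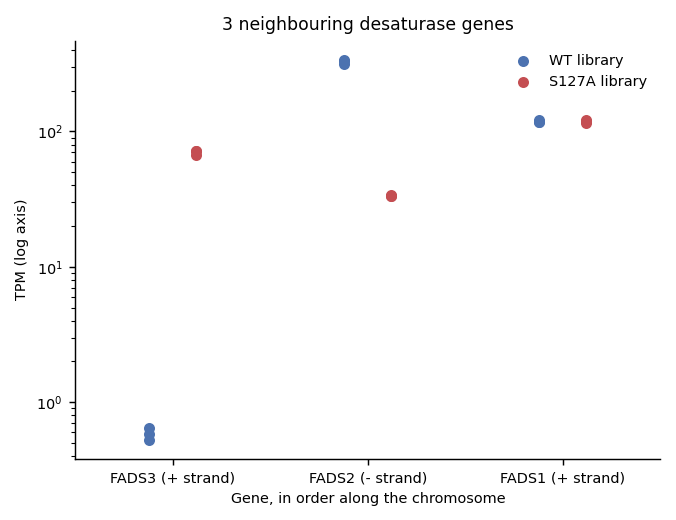
TPM (log axis) of FADS3, FADS2 and FADS1 in their order along chromosome 19, with blue points for WT and red points for S127A libraries. S127A lies above WT at FADS3, below it at FADS2 and on it at FADS1.

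Acyl-CoA synthetases, which activate fatty acids for use, exchanged their leading member. Of 4 genes 1 was lower, 2 were higher and ACSL1 was not called, beside 49.8% lower and 40.2% higher over all tested genes. ACSL3, which works at the endoplasmic reticulum and lipid droplets, stood at 166, 160.3 and 170.2 TPM in WT and 18.8, 18.5 and 19.2 TPM in S127A (log2 fold change −3.07, SE 0.0374, limma adjusted p = 7.29e-14). Its locus overlaps Utp14b on the same strand. ACSL5 ranged from 123 to 126 TPM in WT and from 189 to 194 TPM in S127A, where it was the most abundant of the 37 genes (log2 fold change 0.62, SE 0.0287, limma adjusted p = 3.03e-09). ACSL4, which prefers arachidonate, ranged from 41.2 to 44.4 TPM in WT and from 45.6 to 48.8 TPM in S127A, a small rise without overlap (log2 fold change 0.15, limma adjusted p = 0.00742). ACSL1 ranged from 14.8 to 16.3 TPM in WT and from 13.2 to 14.5 TPM in S127A. Its log2 difference of −0.12 had a 95% interval of −0.25 to 0.01 (limma adjusted p = 0.0814), though the groups did not overlap. Such separation held for 90.2% of all tested genes, so it adds little for ACSL1 and ACSL4.

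As a share of the summed TPM of the 4 genes, ACSL3 held 47.2%, 47.2% and 48.2% in WT and 6.81%, 6.85% and 7.10% in S127A. ACSL5 held 35.4%, 36.3% and 35.8% in WT and 70.3%, 71.4% and 70.0% in S127A. The within-library ratio of ACSL3 to ACSL5 was 1.33 ± 0.0237 in WT and 0.0981 ± 0.00291 in S127A (n = 3). Of 4 such ratios compared (FADS2 to FADS1, ACSL3 to ACSL5, DGAT2 to DGAT1 and FASN to SCD) each gave p = 0.1 by a two-sided exact permutation test, the smallest possible, and 0.1 after Benjamini-Hochberg adjustment.

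**Figure D4:**
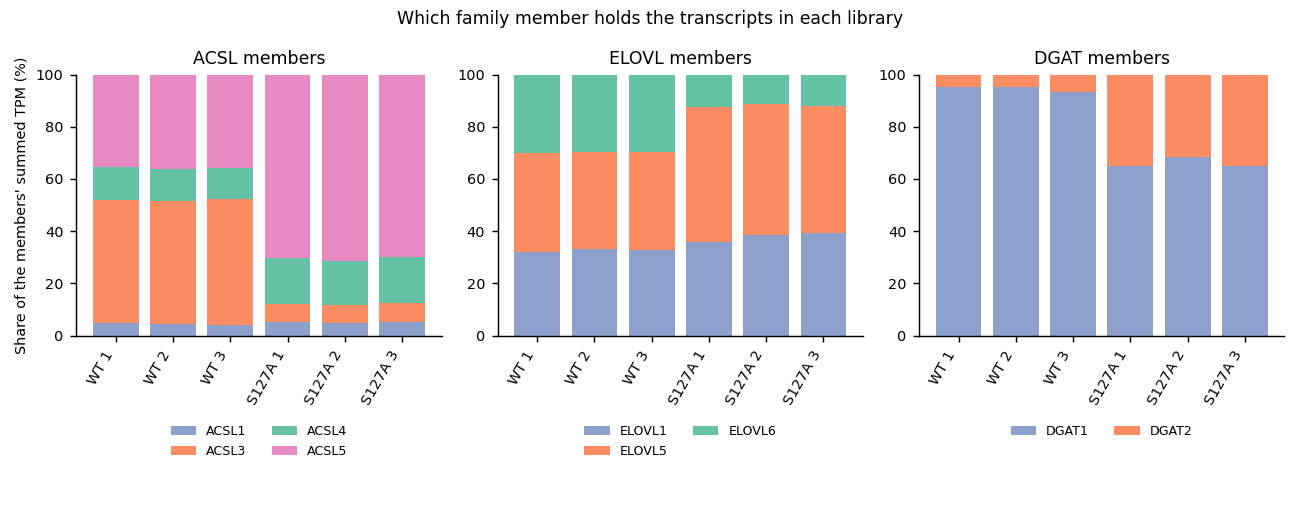
Share of the summed TPM (%) held by each ACSL, ELOVL and DGAT gene in each of the 6 libraries, as stacked bars. ACSL5 takes about 70% of the ACSL bar in S127A in place of about 36% in WT, and DGAT2 takes 31.8% to 35.1% of the DGAT bar in place of 4.92% to 6.51%.

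Genes that join acyl-CoA to glycerol did not move together. In S127A 3 of 5 were higher and 2 lower, with a median log2 fold change of 0.30. The shares over all tested genes were 40.2% higher and 49.8% lower, so these counts do not set the 5 genes apart. GPAM, the mitochondrial acyltransferase of the first step, stood at 15.8, 15.0 and 15.9 TPM in WT and 20.1, 19.7 and 19.97 TPM in S127A (log2 fold change 0.34, limma adjusted p = 5.15e-05). AGPAT2, the acyltransferase of the next step, ranged from 35.4 to 38.5 TPM in WT and from 43.9 to 46.7 TPM in S127A (log2 fold change 0.30, limma adjusted p = 8.2e-05). LPIN1, the phosphatase that makes diacylglycerol, stood at 31.6, 31.4 and 31.3 TPM in WT and 13.3, 12.7 and 13.3 TPM in S127A (log2 fold change −1.20). The early acyltransferases were therefore slightly higher and the phosphatase between them and the last step lower. Each was without overlap, as were 90.2% of all tested genes. Gpam and Acsl5, both higher, are near neighbours on chromosome 19, with 125 kb between them. Of the other matched members on that chromosome TM7SF2 and FADS2 were lower and FADS1 was not called. A link between position and change was not tested.

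The last step of triglyceride synthesis is made by DGAT1 and DGAT2, which are unrelated in sequence. DGAT1 stood at 32.6, 30.1 and 30.0 TPM in WT and 20.2, 20.6 and 18.6 TPM in S127A (log2 fold change −0.62, SE 0.0548, limma adjusted p = 8.85e-07). DGAT2 stood at 1.69, 1.57 and 2.09 TPM in WT and 10.9, 9.58 and 10.1 TPM in S127A, the largest rise of the 37 genes and the only rise of at least 2-fold (log2 fold change 2.01, SE 0.085, limma adjusted p = 1.41e-09). A rise of at least 2-fold was found for 15.5% of all tested genes. DGAT1 was the more abundant of the pair in all 6 libraries. The ratio of DGAT2 to DGAT1 was 0.0579 ± 0.0102 in WT and 0.515 ± 0.0433 in S127A (n = 3), without overlap.

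**Figure D5:**
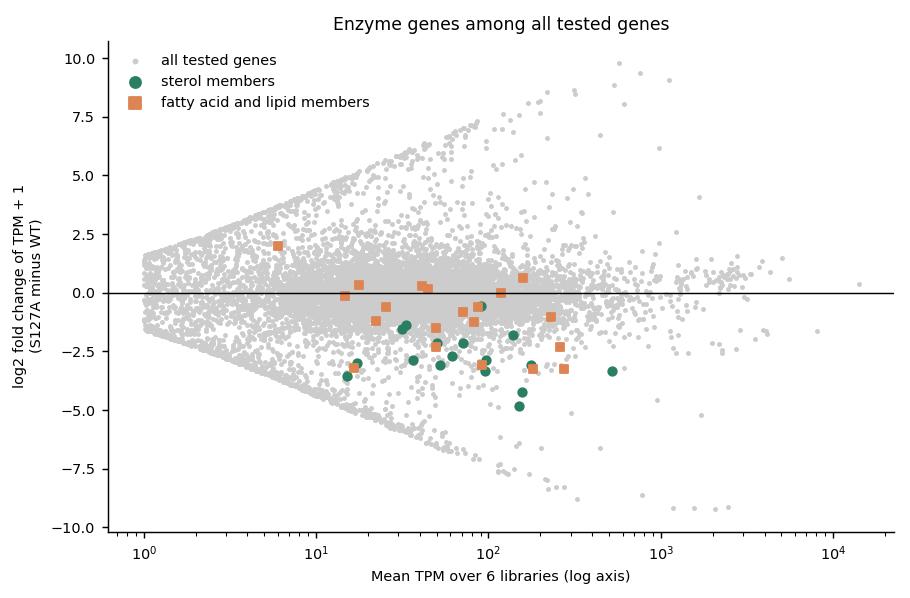
Log2 fold change (S127A minus WT) against mean TPM (log axis) for all 10348 tested genes in grey, with the 17 sterol genes as green circles and the 20 fatty acid and lipid genes as orange squares. The sterol genes all lie below 0, between −0.58 and −4.82, and the squares spread from −3.26 to 2.01.

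Further genes of these pathways were read from a list outside the 37. Of 53 further symbols 40 were listed and 29 tested, of which 19 were lower, 5 higher and 5 not called, with a median log2 fold change of −0.41. By part the medians were −0.93 over 10 sterol genes, −0.31 over 11 fatty acid genes and −0.57 over 8 glycerolipid genes. The last, with 2 genes higher and 5 lower, is opposite in sign to the median of the 5 glycerolipid members (0.30). Over all tested genes 49.8% were lower and 40.2% higher, with a median of −0.12. Among the sterol genes CYP51A1, the lanosterol demethylase, fell from 268 ± 4.01 to 44.6 ± 0.825 TPM (log2 fold change −2.56). COQ2, which adds the isoprenoid tail to coenzyme Q, rose from 49.4 ± 1.21 to 69.4 ± 4.4 TPM.

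Of 20 genes of SREBP control and sterol handling 18 were tested, with 11 lower and 7 higher and a median log2 fold change of −0.74. These counts lie near the shares over all tested genes (49.8% lower and 40.2% higher). SREBF2, the factor of the sterol enzymes, fell from 167 ± 1.76 to 74.1 ± 2.62 TPM, SREBF1, the factor of fatty acid synthesis, from 85.7 ± 4.39 to 46.95 ± 1.67 TPM and their escort SCAP from 57.7 ± 2.35 to 36.8 ± 0.587 TPM. INSIG1, a target and retention factor of SREBP, fell from 357 ± 1.76 to 33.0 ± 0.402 TPM. The proteases that release SREBP rose, MBTPS1 from 52.8 ± 0.821 to 111 ± 0.16 TPM and MBTPS2 from 16.1 ± 0.758 to 27.9 ± 1.45 TPM, and the cholesterol exporter ABCA1 rose slightly, by 0.29 on the log2 scale. APOE, a lipid carrier, fell from 875 ± 27.4 to 8.02 ± 1.3 TPM.

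Fatty acid uptake and storage genes were lower for 9 and higher for 4 of 13 tested (median log2 fold change −0.79). FABP5 fell from 652 ± 44.6 to 0.48 ± 0.156 TPM and MGLL, a lipase, from 6.62 ± 0.196 to 0.0333 ± 0.00577 TPM. The importer SLC27A1 rose from 7.76 ± 0.451 to 72.5 ± 2.20 TPM and PLIN2, a lipid droplet coat protein, from 137 ± 4.0 to 246 ± 2.57 TPM. Genes listed under mitochondrial fatty acid oxidation, the opposing pathway, were lower for 14 and higher for 3 of 20 tested (median −0.65). The shares over all tested genes were again 49.8% lower and 40.2% higher. CPT1A, the gate of that pathway in most tissues, rose from 15.8 ± 0.626 to 33.0 ± 2.41 TPM and HADH from 72.7 ± 2.17 to 119 ± 6.72 TPM. HADHB fell from 216 ± 1.90 to 59.9 ± 0.836 TPM. CPT1C, a CPT1A relative whose part in mitochondrial oxidation was not tested, fell from 37.9 ± 1.22 to 0.153 ± 0.133 TPM. Differences between these lists and the enzymes were not tested.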

How the data were processed

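TPM values of 6 libraries were deposited by the authors in 1 table with gene symbols as rows, per the file headers. The submitters' processing notes name mm10 as the build. Not given in the sources used here are the aligner, the quantifier, the strand setting and the route to upper-case symbols. TPM carries no read depth, so no counting error is given and replicate spread is the error. Genes with a mean of at least 1 TPM (10348) were fitted on log2(TPM + 1) with limma 3.58.1 in R 4.3.3, with a mean-variance trend and genotype as the only term. The test was two-sided with Benjamini-Hochberg adjustment over all tested genes. Fold changes on this scale understate the change of low genes. Sums, shares and ratios were compared by exact permutation in scipy 1.17.1. The fit was also run on simulated data in which few genes changed, by at most 1 log2 unit. That run does not cover changes as broad and large as those found here.

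The 37 members and all lists were chosen with earlier results of these data known. All 37 members are named. Values per library are given for those with an absolute log2 fold change of at least 1 and for a fixed panel of HMGCS1, SQLE, LSS, ACLY, ACACA, FASN, SCD, ELOVL6, ACSL3, GPAM and DGAT1. Outside this rule, TPM per library is also given for FADS1, FADS3 and ZBTB5. Of each other list up to 2 genes per direction with the smallest adjusted p are named, beside a fixed panel of sterol genes, some of which are not reported here. Gene positions come from GENCODE vM21, where 36 members matched, and 10 of these overlap another coding gene (MVD, FDPS, FDFT1, TM7SF2, ACSS2, ACACA, ELOVL1, ACSL3, ACSL5 and AGPAT2), where reads may be shared. Same-numbered libraries did not deviate together (r = 0.117, 0.0174 and 0.0279 for replicates 1 to 3), so they were not treated as pairs.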

Additional observations from a re-analysis of the deposited data

How the results depend on the processing

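The fit was repeated under 18 alternatives. These changed the pseudocount (0.1 and 5) or the filter (none, and a mean of at least 5 TPM), or used TMM factors, quantile normalization, a common total, no trend, robust hyperparameters, array weights, a replicate block, identical symbols counted once, and each of the 6 libraries left out. Of 666 values (37 members under 18 alternatives) 660 kept their direction and their side of the threshold. The other 6 belong to FADS1, whose log2 difference of −0.01 turned positive with TMM factors (0.112), quantile normalization (0.109), a common total (0.0457), array weights (0.000816), without WT replicate 3 (0.00143) and without S127A replicate 1 (0.00975). With single libraries left out it ran from −0.0263 to 0.00975. The number of enzymes lower was 30 in each alternative, and the number higher 5, or 6 with TMM factors and with quantile normalization. The count over all genes ran from 8159 to 10593, and from 9123 to 9211 with a library left out. The lowest count came with the filter at 5 TPM and the highest with no filter, settings that change how many genes are tested. With the replicate block 30 members were lower, 5 higher and 9339 genes were called, and the block changed no member's call. Replicate numbers do not come from a stated pairing, and not every library correlated best with its own number. The median over the 4 ACSL genes, 0.02, crossed 0 without WT replicate 2 (−0.00499) and without S127A replicate 1 (−0.00248), in a range of −0.00499 to 0.0537 over the libraries left out. TMM factors moved the median log2 fold change of all tested genes from −0.116 to −0.000691 and that of the enzymes from −2.13 to −2.01. The deposited unit holds no depth, so the precision of low values such as TM7SF2 in S127A rests on 3 libraries.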
